A study of Homo sapiens with 60 samples.

Results

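The transcripts described here are those of 10 genes known as hosts of small nucleolar RNAs (snoRNAs): SNHG29, SNHG1, SNHG5, SNHG6, SNHG8, SNHG12, SNHG15, SNHG16, GAS5 and ZFAS1. They were taken by gene symbol, and all 10 were found among the 60590 gene rows used of each of the deposited count tables. All 10 also passed the filter on low counts, which kept 23681 genes of the first table and 18641 of the second. Their lowest count in any of the 56 libraries of the first table was 182, for SNHG6.

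A host gene is transcribed as a longer RNA whose introns carry the snoRNAs. The snoRNA is released when the intron is spliced out, and box C/D snoRNAs then join fibrillarin (FBL), the methyltransferase of the nucleolus, while box H/ACA snoRNAs guide the conversion of uridine to pseudouridine. What is left of a noncoding host gene is a spliced RNA that is often short-lived, since many such RNAs are substrates of nonsense-mediated decay. Several belong, like the ribosomal protein mRNAs, to the genes whose RNA begins with a run of pyrimidines, known as a terminal oligopyrimidine tract. In the RefSeq annotation of GRCh38.p14, 38 snoRNA genes lie within the spans of the 10 host genes, 11 of them in GAS5, 9 in SNHG1, 4 in SNHG12 and 3 each in SNHG29, SNHG16 and ZFAS1.

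The start sites are shown because several RNAs of this class of genes are known to begin with a run of pyrimidines. The choice of members did not use that run. Each sequence holds the 40 bases before and the 20 bases from the start given in the RefSeq promoter table, read 5′ to 3′ on the gene's strand, GRCh38.p14. For SNHG12 and ZFAS1 that start lies within the annotated gene span, downstream of its outer end, and for the others it is the end of the span. The capitals mark the longest run of C and T within 15 bases on either side of the start, which need not hold the first base of the RNA. In SNHG5, SNHG12 and ZFAS1 the run holds that base, and in SNHG8 it ends there. The run of SNHG29 lies wholly before the start, and those of SNHG1, SNHG16 and GAS5 lie wholly after it. In these genes the capitals are therefore not a tract at the first base. Of the 10 genes, 8 were matched by symbol in the promoter table, and SNHG6 and SNHG15 were not.
SNHG29: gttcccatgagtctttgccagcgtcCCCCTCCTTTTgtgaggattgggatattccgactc
SNHG1: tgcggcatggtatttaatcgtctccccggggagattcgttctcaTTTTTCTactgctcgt
SNHG5: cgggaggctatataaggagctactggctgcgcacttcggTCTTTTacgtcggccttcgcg
SNHG8: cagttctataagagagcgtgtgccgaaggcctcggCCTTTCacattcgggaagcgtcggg
SNHG12: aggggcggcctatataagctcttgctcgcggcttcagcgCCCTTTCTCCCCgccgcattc
SNHG16: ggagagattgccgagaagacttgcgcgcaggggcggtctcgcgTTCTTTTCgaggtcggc
GAS5: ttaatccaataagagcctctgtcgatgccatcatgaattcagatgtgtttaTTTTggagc
ZFAS1: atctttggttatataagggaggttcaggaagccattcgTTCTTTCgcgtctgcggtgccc
The windows lie at chr17:16438947-16439006 on the plus strand for SNHG29, chr11:62855866-62855925 on the minus strand for SNHG1, chr6:85678714-85678773 on the minus strand for SNHG5 and chr4:118278722-118278781 on the plus strand for SNHG8. Those of SNHG12 and GAS5, both on the minus strand, are chr1:28581854-28581913 and chr1:173869026-173869085. Those of SNHG16 and ZFAS1, both on the plus strand, are chr17:76557724-76557783 and chr20:49278602-49278661. The longest run within the searched stretch was 12 bases in SNHG12 and 11 in SNHG29, lengths reached by 3.23% and 4.49% of the 35116 promoters in the table. The edge of that stretch cuts the run of SNHG29, which goes on into the lower-case t and c just before the capitals. In the other genes the length is as follows. The run was 8 bases in SNHG16 (13.7% of promoters), 7 in SNHG1 and ZFAS1 (20.2%), 6 in SNHG5 and SNHG8 (31.1%) and 4 in GAS5 (70.7%), and the median over all promoters was 4. The run in GAS5 was thus no longer than that median. The first base was C in 5 of the 8, against 14.7% of all promoters. TATAA, on either strand, was in the window of 4 of the 8 (SNHG5, SNHG8, SNHG12 and ZFAS1), against 6.49% of all windows of the same length.

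The RNA came from Flp-in HEK293 cells, a line of human embryonic kidney origin, each line stably expressing a FLAG-tagged APEX2 fusion. APEX2 is a peroxidase that, given biotin-phenol and hydrogen peroxide, biotinylates molecules close to the protein it is fused to. The cells of every group were labelled 24 hours after plating, by 30 minutes in 500 µM biotin-phenol, then 1 minute in 1 mM hydrogen peroxide, and biotinylated RNA was pulled down on streptavidin. The 14 constructs were SRSF7, SRSF1 and RNPS1 (nuclear speckles), SAM68 (an RNA-binding protein, gene KHDRBS1), PML and SP100 (PML bodies), SMN2 and WRAP53 (gems and Cajal bodies), NPAT (histone locus body), FBL (nucleolus), LMNA (nuclear lamina), and the references NLS, a nuclear localisation signal, GFP and FLAG. Each had 2 pulldown and 2 input libraries, 56 in all in 28 groups, the input being RNA set aside before the pulldown. A second table held SRSF7 pulldown RNA alone, in 2 poly(A)-selected and 2 ribosome-depleted libraries. Whether the replicates came from separate cultures is not stated in the labels. A p-value here therefore measures only how far these libraries differ among themselves, which may be technical.

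Counts per library were 14038645 to 56256915 in the inputs, 19280434 to 42097988 in the pulldowns and 23522546 to 30511742 in the second table. The tagged gene was above all other inputs in both of its own inputs for 9 of the 11 constructs named after a gene, FBL at 1118 and 1113 CPM (counts scaled to a common library size) against 380 to 693 elsewhere. The exceptions were SMN2, at 20.5 and 24.2 CPM against up to 28.7 CPM elsewhere, and SRSF1, whose row was near 0 in all inputs (0.537 and 0.621 CPM in its own, 0.369 to 2.33 CPM elsewhere) and so checks nothing. Of the markers of the line, VIM, KRT8, KRT18 and PAX2 were present, NEFM was at 0.0875 to 0.985 CPM, and 6 markers of blood, liver, endothelial, connective and heart cells reached at most 4.53 CPM. Input replicate 1 of FBL stood apart, with 2289 of 12231 genes more than 2-fold from the median input; the NPAT input replicate 1 had 932 and the SRSF1 inputs had 648 and 480. The libraries also fell into 3 sets by the counts of the pseudogene rows RPS14P8 and RPS3AP21. RPS14P8 (395 to 1078 in set I, 1 to 15 in set II, 19 to 32 in set III) set apart set I. RPS3AP21 (9 to 88 in set II, 0 to 1 in set III) divided set II from set III. Set II held the inputs of SRSF1, SRSF7, PML, NLS, FLAG and LMNA (12 libraries) and 24 pulldowns, set I the remaining 16 inputs, and set III the pulldowns of GFP and of LMNA with the 4 libraries of the second table. Input and pulldown lie in the same set for SRSF1, SRSF7, PML, NLS and FLAG and in different sets for FBL and the other constructs; the part of the set in those values was not tested.

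SNHG29, the host of SNORD49A, SNORD49B and SNORD65 (chr17:16438987-16470648, GRCh38.p14, a long noncoding RNA gene), had the largest pulldown over input of the 10 members near FBL. Its level in the FBL inputs was 207 and 288 CPM and in the FBL pulldowns 986 and 1239 CPM. The 26 pulldowns of the other 13 constructs ran from 166 CPM (LMNA replicate 2) through a median of 279.9 to 432 CPM (PML replicate 1), so no library of another pulldown reached the FBL values. The FBL pulldown was 4.49-fold above its input, a log2 difference of 2.17 ± 0.14 (SE, n = 2 libraries per group, edgeR adjusted p = 2.6e-14). Levels are CPM with TMM scaling, a share of each library; these are bulk libraries, so fewer cells with a transcript and less of it per cell cannot be told apart.

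**Figure D1:**
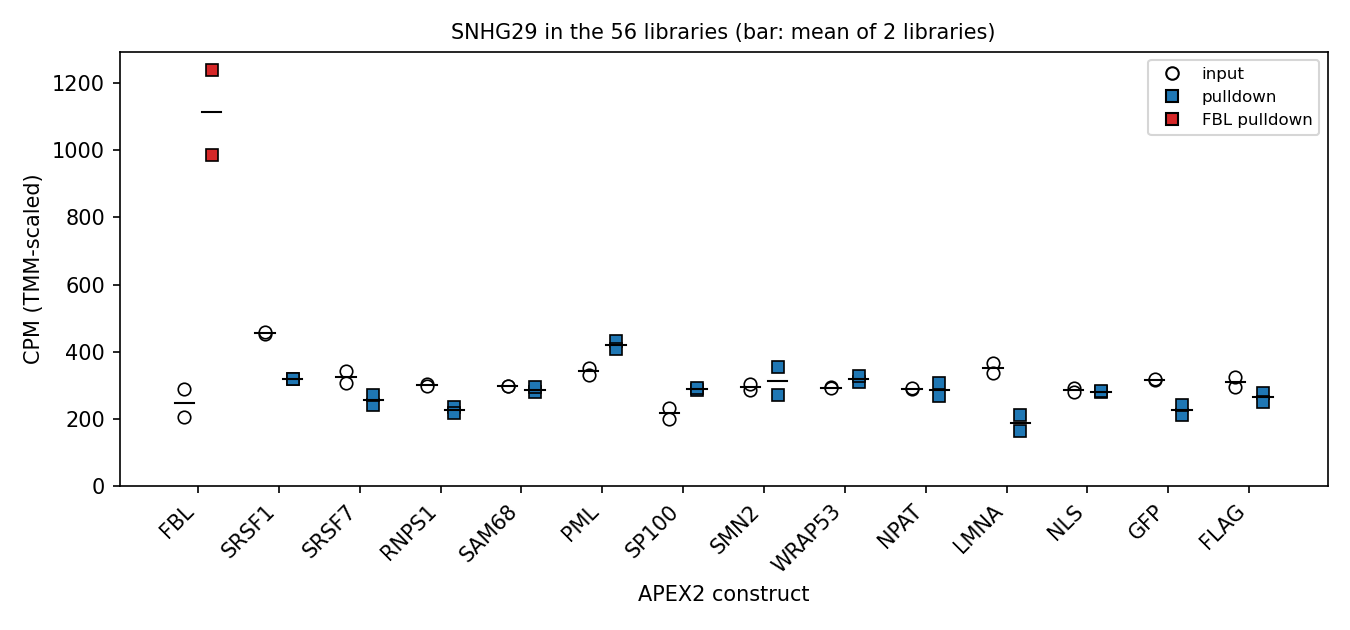
SNHG29 level (CPM with TMM scaling, linear axis from 0) in the 2 inputs (open circles) and 2 pulldowns (squares) of each of the 14 APEX2 constructs, with short bars at the means. The FBL pulldowns, at 986 and 1239 CPM, lie above all other libraries, the highest of which is an SRSF1 input at 460 CPM.

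The next highest value of SNHG29 over its input was that of SP100, 0.41 ± 0.13 (adjusted p = 0.0158), with inputs of 233 and 202 CPM and pulldowns of 286 and 293 CPM. This call, made across sets, was lost without SP100 input 2, pulldown 1 or pulldown 2 (0.31 to 0.43, adjusted p 0.0648 to 0.199). SNHG29 fell at 5 constructs: LMNA (-0.89 ± 0.13, adjusted p = 4.11e-07), SRSF1 (-0.51 ± 0.13, 0.00108), GFP (-0.48 ± 0.13, 0.0023), RNPS1 (-0.40 ± 0.13, 0.0153) and SRSF7 (-0.34 ± 0.13, 0.0338). Its SRSF1 pulldowns, at 319 and 319 CPM, were near the other pulldowns, while the SRSF1 inputs of 452 and 460 CPM were the highest inputs of this gene. The calls at SRSF7, RNPS1 and GFP did not hold without each single library: the values without the libraries that end them ran from -0.32 to -0.26 at SRSF7 (input 1, pulldown 1), from -0.42 to -0.35 at RNPS1 (inputs 1 and 2, pulldown 2) and were -0.36 at GFP (pulldown 1).

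Set against the nuclear reference NLS, each over its own input, SNHG29 was 2.19 ± 0.19 higher near FBL on the log2 scale (adjusted p = 1.06e-09). Against the mean of the 10 other body baits it was 2.30 ± 0.14 higher (adjusted p = 4.6e-14). In each of these comparisons its p was the smallest of the 23681 genes tested. Among the genes called higher with a mean of at least 5 CPM, it ranked 2 of 93 and 2 of 277 by the size of the difference. The FBL and NLS pulldowns lie in the same set, and compared without inputs they differed by 1.98 in SNHG29 (adjusted p = 3.4e-13). Without FBL input 1 the values were 1.95 over input, 1.99 against NLS and 2.11 against the other baits, and the SNHG29 calls held in every alternative run. LRRC75A, a gene whose annotation overlaps that of SNHG29, was not called near FBL, at -0.35 ± 0.20 over input (adjusted p = 0.166). Whether the counting used strand is not given in the sources used here, so reads in overlapping stretches could be shared. Of the 10 members, 4 overlap another gene that is no snoRNA, and the part of shared reads was not tested. TRNAU1AP, which overlaps SNHG12, was called higher at SRSF1 (1.09 ± 0.16, adjusted p = 4.17e-07) and near the speckle constructs against NLS (0.54 ± 0.19, 0.0331). Near FBL it was lower (-0.45 ± 0.17, 0.0309). At GAS5, near FBL, ZBTB37 was called higher (0.36 ± 0.13, 0.0317) and GAS5-AS1 lower (-1.46 ± 0.35, 0.00128).

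The other members near FBL were compared with their inputs next. Of the 10 host genes, 6 rose and 1 fell, where 36.4% of all tested genes were called (15.9% higher and 20.5% lower). The median of the members was 0.46 on the log2 scale and that of all genes 0.06. In 6 members both pulldowns lay above both inputs, where 29.3% of all genes did so, and in 2 both lay below, where 26.4% did.

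SNHG1, host of a run of box C/D snoRNAs, was at 11.1 and 54.3 CPM in the FBL inputs and at 62.2 and 69.1 CPM in the pulldowns. The low value is that of input replicate 1, the library that stood apart, and the other inputs of SNHG1 ran from 28.8 to 87.0 CPM. The log2 difference was 0.98 ± 0.29 (adjusted p = 0.00765), and 0.27 without that input (adjusted p = 0.368) and 0.90 without FBL pulldown 2, neither of which passed.

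GAS5, the host gene with the most snoRNAs of the 10 and named for its rise in growth-arrested cells, was at 95.2 and 122 CPM in the inputs and 168 and 190.4 CPM in the pulldowns. ZFAS1, host of the SNORD12 group, was at 62.2 and 103 CPM in the inputs and 133 and 154 CPM in the pulldowns. In both genes the pulldowns lay above the inputs. GAS5 rose by 0.72 ± 0.13 (adjusted p = 3.67e-05) and ZFAS1 by 0.80 ± 0.16 (adjusted p = 0.000137), and both calls held without FBL input 1, at 0.55 (adjusted p = 0.0086) and 0.48 (adjusted p = 0.0325).

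SNHG12 and SNHG5 were called higher by smaller differences that rested on that library. SNHG12, host of box H/ACA snoRNAs and of SNORD99, was at 19.6 and 27.1 CPM in the inputs and 33.9 and 36.4 CPM in the pulldowns, a difference of 0.58 ± 0.16 (adjusted p = 0.00345). Without FBL input 1 it was 0.38 (adjusted p = 0.134). SNHG5, host of SNORD50A and SNORD50B, differed by 0.34 ± 0.14 (adjusted p = 0.0468), and by 0.24 without that input (adjusted p = 0.319); its call was also lost without either FBL pulldown.

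SNHG8, which carries the box H/ACA RNA SNORA24, fell near FBL, from 21.7 and 19.8 CPM in the inputs to 13.5 and 12.1 CPM in the pulldowns (-0.69 ± 0.14, adjusted p = 0.000197; -0.63 without FBL input 1). SNHG6 (0.04 ± 0.20), SNHG15 (-0.18 ± 0.12) and SNHG16 (-0.05 ± 0.14) did not pass the test. Without FBL input 1, 4 of the 10 members were called, SNHG29, GAS5 and ZFAS1 higher and SNHG8 lower, and the calls over all genes fell from 8615 to 4246. The part that library plays in the input of the FBL line was not tested.

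Against NLS, SNHG29 was the single member called near FBL (1 of 10, with 0.688% of all tested genes called, 0.439% higher and 0.249% lower). The next values in size were those of SNHG15 at -0.58 ± 0.16 (adjusted p = 0.0799), SNHG1 at 0.55 ± 0.40 (0.575; -0.53 as pulldowns alone) and SNHG8 at -0.44 ± 0.19 (0.287). Against the 10 other body baits 2 of 10 members were called, where 4.62% of all genes were (1.3% higher, 3.33% lower). These were SNHG29 and SNHG15, the host of SNORA9, which was lower by 0.64 on the log2 scale (-0.64 ± 0.12, adjusted p = 0.00381). SNHG15 lay at 46.2 and 41.4 CPM in the FBL inputs and 37.4 and 39.6 CPM in the pulldowns, both pulldowns below both inputs. Its call was lost without FBL input 1, FBL pulldown 1 or FBL pulldown 2 (-0.69 to -0.53, adjusted p 0.0574 to 0.157). Compared as pulldowns alone, which leaves the inputs and their sets out, FBL differed from NLS in 2171 of the 23681 genes tested. Among these were 4 of the 10 members: SNHG29, SNHG16 (0.56, adjusted p = 0.00817), SNHG15 (-0.70, adjusted p = 0.000125) and SNHG6 (-0.87, adjusted p = 0.00294). Both comparisons use the FBL libraries, and that against NLS shares the NLS libraries with those of the speckle baits and LMNA below. Leaving out FBL input 2, which leaves the input that stood apart, raised the members called to 5 against NLS and 7 against the other baits, and the calls over all genes from 163 to 6246 and from 1095 to 8168. Without FBL input 1, pulldown 1 or pulldown 2 the calls over all genes fell to 16, 11 and 9 against NLS and to 30, 103 and 22 against the other baits.

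The speckle proteins come next. SNHG1, SNHG12, GAS5 and ZFAS1, called higher near FBL, were also called higher near SRSF1, with SNHG15 and SNHG6 in addition. The heat map of pulldown over input gives all 140 values, of which 35 were called higher, 25 lower and 80 not called. Of all genes tested, 2.31% (FLAG) to 30.1% (LMNA) were called higher at a construct. The share called lower ran from 9.77% (WRAP53) to 28% (LMNA). The split of all called genes moves with the scaling: the percent of calls that were higher went, from TMM to total counts, from 43.7 to 58.9 for FBL, 56 to 72.4 for SRSF1, 53 to 73.2 for SRSF7, 48.7 to 64.4 for RNPS1, 38.1 to 67.9 for NLS, 41.1 to 53 for PML, 43.3 to 56.5 for SP100, 48.8 to 33.9 for SAM68, 50.5 to 61.3 for NPAT and 18.6 to 37.2 for FLAG. For FBL against NLS it went from 63.8 to 49.1, for FBL against the other baits from 28 to 51.4, for LMNA against NLS from 46.1 to 31.6 and for poly(A) from 50.8 to 61.6.

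**Figure D2:**
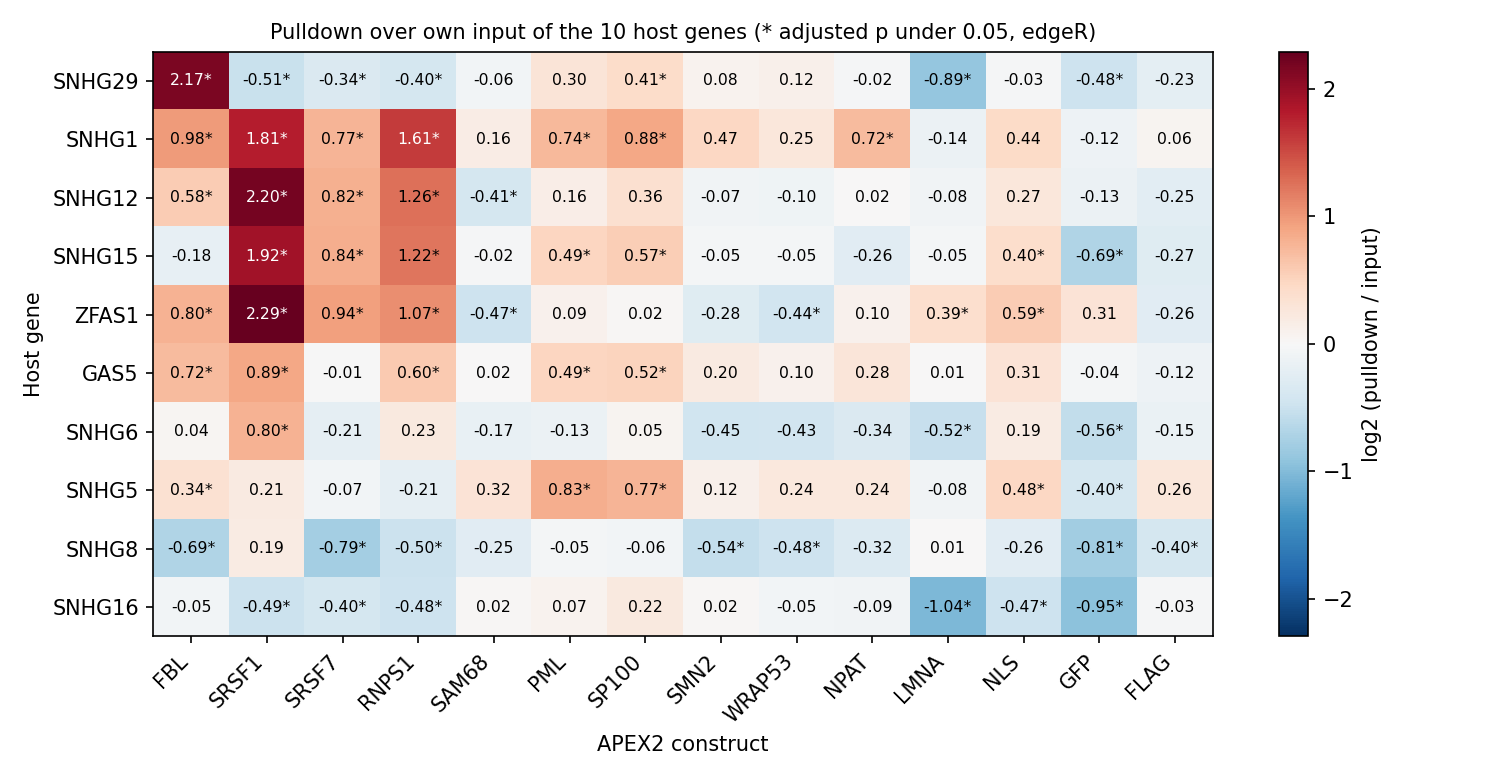
Log2 pulldown over own input of the 10 host genes (rows) for the 14 APEX2 constructs (columns), red higher and blue lower, with an asterisk where the edgeR adjusted p was under 0.05. SNHG29 has its one strong value at FBL (2.17), while SNHG1, SNHG12, SNHG15 and ZFAS1 have theirs at SRSF1 (1.81, 2.20, 1.92 and 2.29).

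SRSF1 is an SR protein, a splicing factor of the speckles that also leaves the nucleus with mRNA. In its pulldown 6 of the 10 members rose and 2 fell, where 52.3% of all genes were called (29.3% higher, 23% lower). The median of the members was 0.84 and that of all genes 0.28. All 10 members had pulldowns that did not overlap their inputs, 8 above and 2 below, and 48.2% and 33% of all genes did the same.

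ZFAS1 was at 65.2 and 75.7 CPM in the SRSF1 inputs and at 339 and 352 CPM in the pulldowns. SNHG12 went from 31.3 and 35.3 CPM to 159 and 148 CPM, and SNHG15 from 48.9 and 52.2 CPM to 194 and 189 CPM. In all of these genes the SRSF1 pulldowns were the highest of the 28 pulldown libraries. The SRSF1 inputs, which stood apart, were below the median input of ZFAS1 (102 CPM) and above those of SNHG12 (28.3 CPM) and SNHG15 (43.3 CPM); the part of this in the values was not tested. The log2 differences were 2.29 ± 0.16 for ZFAS1 (adjusted p = 2.33e-14), 2.20 ± 0.15 for SNHG12 (1.22e-14) and 1.92 ± 0.12 for SNHG15 (3.87e-16).

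SNHG1 was at 72.9 and 87.0 CPM in the SRSF1 inputs and 287 and 272 CPM in the pulldowns, a rise of 1.81 ± 0.28 (adjusted p = 1.28e-06). GAS5 was at 191 and 209 CPM in the inputs and 386 and 355 CPM in the pulldowns, a rise of 0.89 ± 0.13 (adjusted p = 2.72e-07). SNHG6, at 27.9 and 28.5 CPM against 50.3 and 48.0 CPM, rose by 0.80 ± 0.18 (adjusted p = 0.000227), its only call in the upward direction over the 14 constructs. SNHG29 and SNHG16 fell (-0.51 ± 0.13 and -0.49 ± 0.14), and SNHG5 (0.21 ± 0.14) and SNHG8 (0.19 ± 0.13) did not pass. ZFAS1 and SNHG12 differed from each other by less than the sum of their errors, and so did SNHG15 and SNHG1. The falls of SNHG29 and SNHG16 were lost when libraries were scaled by total counts (-0.21 and -0.19), and those at SRSF7 and RNPS1 were lost likewise.

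**Figure D3:**
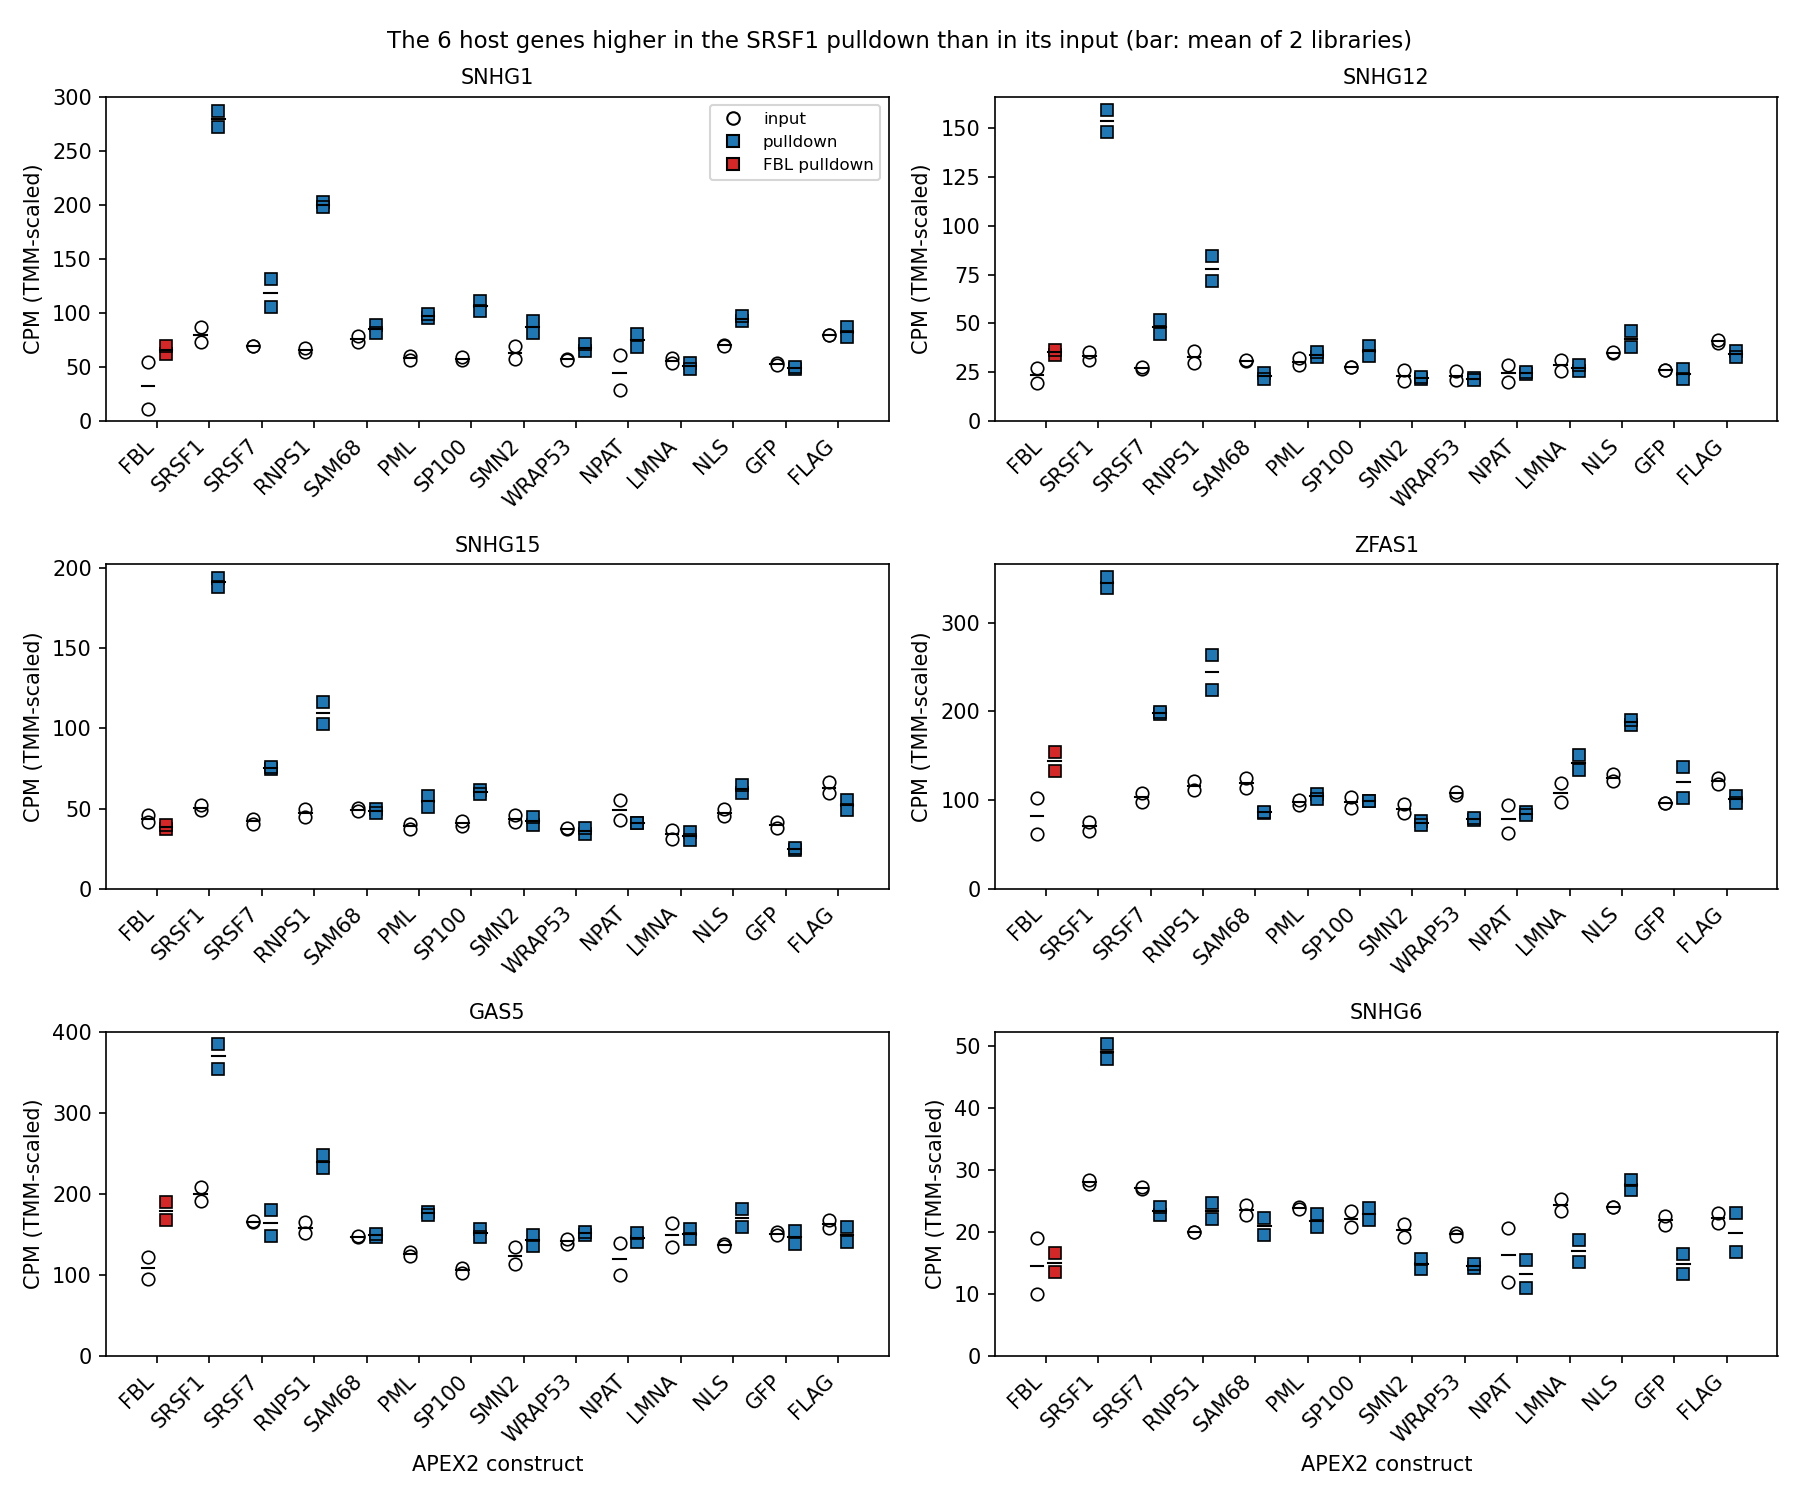
Levels (CPM with TMM scaling, linear axes from 0) of SNHG1, SNHG12, SNHG15, ZFAS1, GAS5 and SNHG6 in the 2 inputs (open circles) and 2 pulldowns (squares, FBL in red) of each construct, with short bars at the means. In each panel the SRSF1 pulldowns are the highest libraries, such as 339 and 352 CPM for ZFAS1.

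RNPS1, a speckle protein that joins the exon junction complex, also had 5 of these 6 genes called higher. Of the 10 members 5 rose and 3 fell in its pulldown, where 34.9% of all genes were called (17% higher, 17.9% lower). SNHG1 rose by 1.61 ± 0.28, from 63.7 and 68.0 CPM to 203 and 199 CPM, SNHG12 by 1.26 ± 0.15, SNHG15 by 1.22 ± 0.12, ZFAS1 by 1.07 ± 0.16 and GAS5 by 0.60 ± 0.13 (adjusted p from 1.14e-10 for SNHG15 to 0.000256 for GAS5). SNHG6, at 20.0 and 20.0 CPM against 24.7 and 22.2 CPM, did not pass (0.23 ± 0.19, adjusted p = 0.354). The members that fell were SNHG29, SNHG8 (-0.50 ± 0.14) and SNHG16 (-0.48 ± 0.14); the SNHG8 call was lost without RNPS1 input 1 (-0.28) and that of SNHG16 without RNPS1 input 2 (-0.42).

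SRSF7, the other SR protein, gave smaller rises. Of the 10 members 4 rose and 3 fell, where 44.1% of all genes were called (23.3% higher, 20.7% lower), and the median of the members was -0.04 against 0.17 for all genes. ZFAS1 rose by 0.94 ± 0.16, from 98.4 and 108 CPM to 197 and 199.8 CPM, SNHG15 by 0.84 ± 0.11, SNHG12 by 0.82 ± 0.15 and SNHG1 by 0.77 ± 0.28. SNHG1 spanned 69.1 and 69.9 CPM in the inputs and 106 and 132 CPM in the pulldowns, and its call (adjusted p = 0.0225) was lost without SRSF7 input 1, input 2 or pulldown 2 (adjusted p 0.0885 to 0.148). SNHG8 fell by 0.79 on the log2 scale (-0.79 ± 0.13, adjusted p = 7.2e-06), from 22.2 and 21.7 CPM to 11.55 and 13.98 CPM. SNHG16 also fell (-0.40 ± 0.14, adjusted p = 0.0188), a call that was lost without SRSF7 input 2 or pulldown 1 (-0.40 and -0.33).

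The mean of the 3 speckle constructs over their inputs was compared with NLS, to separate speckle proximity from labelling in the nucleus at large. Of the 10 members 4 were higher and 1 lower, where 20.4% of all genes were called (12.5% higher, 7.88% lower). SNHG12 was higher by 1.16 ± 0.17 (adjusted p = 4.24e-06), SNHG15 by 0.93 ± 0.13 (2.01e-06), ZFAS1 by 0.85 ± 0.18 (0.000546) and SNHG1 by 0.96 ± 0.32 (0.0289). SNHG5 was lower (-0.50 ± 0.16, adjusted p = 0.0174). SNHG29 was at -0.39 ± 0.15 and did not pass (adjusted p = 0.0607), and GAS5 was at 0.18 ± 0.15 (adjusted p = 0.446). The median was 0.13 for the members and 0.14 for all genes. As pulldowns alone, GAS5 was also called (0.52, adjusted p = 0.000266), and ZFAS1 was at 0.45 (adjusted p = 0.00773).

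The speckle constructs did not contribute alike. Taken alone against NLS, a comparison added after the data had been seen, SRSF1 gave 1.94 for SNHG12, 1.71 for ZFAS1, 1.52 for SNHG15 and 1.37 for SNHG1, all past the threshold. RNPS1 alone gave 0.99, 0.48, 0.82 and 1.17 in the same order, with SNHG12 and SNHG15 past it. SRSF7 alone gave 0.55, 0.35, 0.44 and 0.34, with SNHG15 past it (adjusted p = 0.0458). Of the other members, GAS5 was called higher with SRSF1 alone (0.57). Called lower were SNHG29 with SRSF1 alone (-0.49), SNHG5 with RNPS1 (-0.69) or SRSF7 alone (-0.55), and SNHG8 with SRSF7 alone (-0.53). Over all 23681 genes tested, 1799 were called with RNPS1 alone and 4827 with the mean of the 3. The counts for SRSF1 and SRSF7 alone are not given here. The call of SNHG1 over the 3 constructs was lost when any of 7 of the 16 libraries was left out (0.85 to 1.00, adjusted p 0.0508 to 0.156): each NLS library, either SRSF1 input, or SRSF7 input 1. That of SNHG5 was lost without either NLS input or NLS pulldown 2 (adjusted p 0.0615 to 0.111), and was not made with SRSF1 alone (-0.27).

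**Figure D4:**
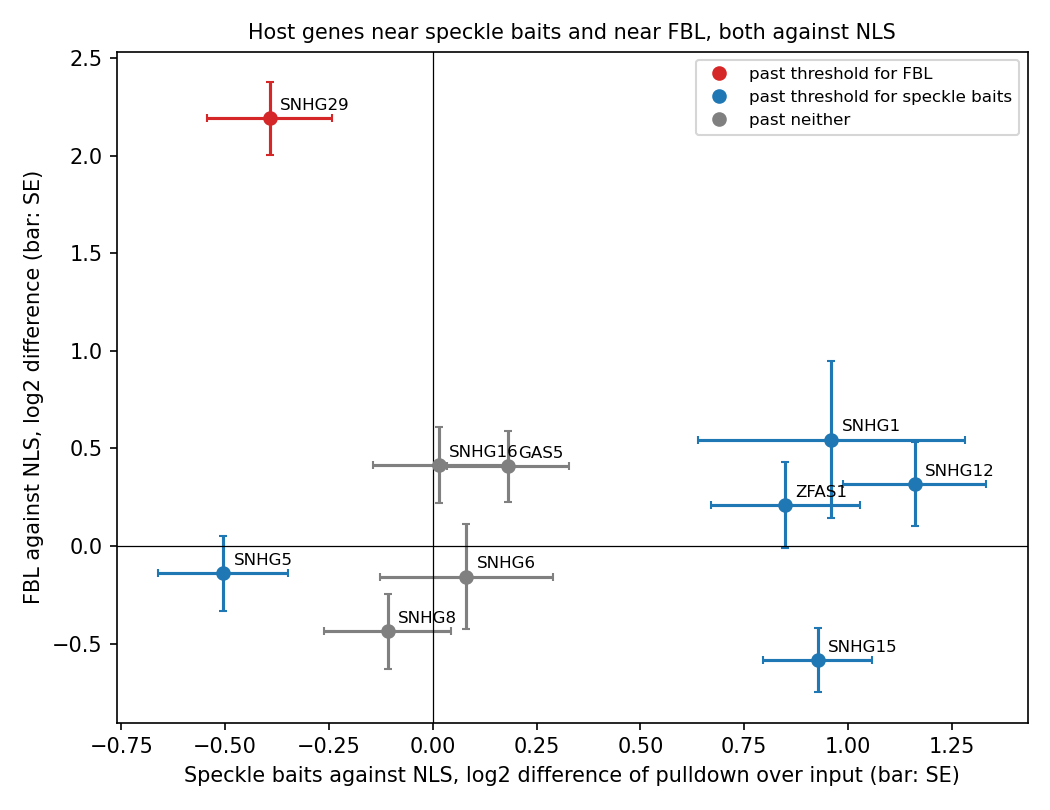
Log2 difference of pulldown over input between the mean of SRSF1, SRSF7 and RNPS1 and NLS (x axis) and between FBL and NLS (y axis) for the 10 host genes, with SE bars; both axes share the NLS libraries. SNHG29 is alone at the top (2.19 for FBL), and SNHG12, SNHG1, SNHG15 and ZFAS1 lie at the right, between 0.85 and 1.16 for the speckle constructs.

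Genes of related function were counted in the same comparison of speckle constructs with NLS. Of 22 other SNHG-named and related host genes 15 were tested and 4 were called, all higher, among them SNHG11 (1.01 ± 0.19, adjusted p = 0.000172) and SNHG17 (0.93 ± 0.15, 1.74e-05). Of 41 tested protein-coding genes that host snoRNAs, 2 were higher and 17 lower, with a median of -0.66. Of 39 ribosomal protein mRNAs outside that list, a class known to begin with a pyrimidine run, 1 was higher and 30 were lower, with a median of -0.93. Of 9 tested factors of nonsense-mediated decay 4 were called, all higher (median 0.27), and of 17 core and assembly proteins of the snoRNA particles 2 were higher and 6 lower.

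In the FBL pulldown over input the same lists gave other counts. Of the 15 other host genes 3 rose and 3 fell, the falls being SNHG9 (-1.23 ± 0.29), SNHG7 (-0.86 ± 0.21) and SNHG11 (-0.64 ± 0.18). The rises were SNHG14 (2.39 ± 0.84, at a mean of 0.799 CPM), SNHG31 (0.84 ± 0.32) and SNHG22 (0.69 ± 0.23). Of the 41 coding host genes 4 rose and 16 fell, with RPS2 at -1.65 ± 0.18 and RPSA at -1.31 ± 0.21 among those that fell and NOP56, a core protein of box C/D particles that is itself a host gene, at 0.97 ± 0.16 among those that rose. Of the 39 other ribosomal protein mRNAs 20 were called, all lower, RPL41 by 2.37 on the log2 scale (-2.37 ± 0.27). Against NLS, 2 of the 41 coding host genes were called near FBL, both lower, one of them RPSA (-1.48 ± 0.29, adjusted p = 0.0118).

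PML and SP100, which form the PML bodies, both had SNHG1, SNHG5, SNHG15 and GAS5 called higher. All of these genes were called higher elsewhere too. SNHG1 and SNHG15 were so at the 3 speckle constructs, and SNHG5 and SNHG15 at NLS. GAS5 was called higher at SRSF1, RNPS1 and FBL, SNHG1 also at FBL and NPAT, and SNHG5 also at FBL. In the PML pulldown 4 of the 10 members were called, all higher, where 26.5% of all genes were called (10.9% higher, 15.6% lower), and in the SP100 pulldown 5 were called, all higher, where 29.5% were called (12.8% higher, 16.7% lower). SNHG5 had its highest values here: 126 and 115 CPM in the PML inputs against 213 and 217 CPM in the pulldowns (0.83 ± 0.14, adjusted p = 1.58e-05), and 99.98 and 85.1 CPM against 167 and 148 CPM for SP100 (0.77 ± 0.14, adjusted p = 4.81e-05). The pulldowns lay above the inputs in both lines, where 34.4% of all genes did so at PML and 34.2% at SP100. SNHG15 rose by 0.49 ± 0.11 and 0.57 ± 0.12, GAS5 by 0.49 ± 0.13 and 0.52 ± 0.13, and SNHG1 by 0.74 ± 0.28 and 0.88 ± 0.28 at PML and SP100. The SNHG1 calls were lost without any single PML library (0.69 to 0.78) and without SP100 input 1, input 2 or pulldown 1 (0.82 to 0.92), and that of GAS5 at PML without PML input 2 (0.46, adjusted p = 0.0547). The PML input and pulldown lie in the same set and those of SP100 do not.

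At NLS itself SNHG5 (0.48 ± 0.14), SNHG15 (0.40 ± 0.11) and ZFAS1 (0.59 ± 0.15) rose and SNHG16 fell (-0.47 ± 0.14), 4 of 10 where 24.5% of all genes were called (9.32% higher, 15.1% lower). ZFAS1 was at 129 and 121 CPM in the NLS inputs and 185 and 191 CPM in the pulldowns. None of the 4 calls held without each single NLS library: 1 to 3 remained, with values of 0.42 to 0.46 for SNHG5 (without input 2 or pulldown 2), 0.34 and 0.34 for SNHG15 (without input 1 or pulldown 2), 0.53 for ZFAS1 (without input 2) and -0.48 to -0.44 for SNHG16 (without input 1 or either pulldown). So the rises of SNHG5 at PML and SP100 (0.83 and 0.77) stand beside a value of 0.48 at the nuclear reference; the difference between PML bodies and NLS was not tested.

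SAM68, SMN2, WRAP53, NPAT and FLAG gave few calls. SNHG12 (-0.41 ± 0.16) and ZFAS1 (-0.47 ± 0.16) fell at SAM68, 2 of 10 where 42.9% of all genes were called (20.9% higher, 22% lower); ZFAS1 went from 114 and 125 CPM to 85.5 and 86.9 CPM. SNHG8 fell at SMN2 (-0.54 ± 0.14, 1 of 10 against 14.6% of all genes, 4.35% higher and 10.2% lower), and SNHG8 (-0.48 ± 0.14) and ZFAS1 (-0.44 ± 0.16) at WRAP53 (2 of 10 against 22.7%, 12.9% higher and 9.77% lower). SNHG1 rose at NPAT (0.72 ± 0.29, 1 of 10 against 47.2%, 23.8% higher and 23.4% lower), from 28.8 and 60.9 CPM to 68.5 and 80.7 CPM. Without NPAT input 1, the low value, it was 0.30 (adjusted p = 0.549), and it was also lost without either NPAT pulldown. SNHG8 was the single call at FLAG (-0.40 ± 0.13, adjusted p = 0.0395, 1 of 10 against 12.4%, 2.31% higher and 10.1% lower), lost without any single FLAG library (-0.48 to -0.30).

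The calls at these constructs rested on single libraries as well. At SAM68 that of SNHG12 was lost without input 1, input 2 or pulldown 2 (-0.47 to -0.34) and that of ZFAS1 without input 2 or pulldown 1 (-0.48 and -0.41). At SMN2 the SNHG8 call was lost without input 2 or pulldown 1 (-0.51 and -0.29). At WRAP53 the SNHG8 call was lost without input 1 or pulldown 1 (-0.47 and -0.45), and the ZFAS1 call without any 1 of the 4 libraries (-0.53 to -0.42). The calls over all genes moved with single libraries too: they fell from 5371 to 1383 at WRAP53 without pulldown 1, from 3451 to 1125 at SMN2 without input 2, from 11178 to 5023 at NPAT without input 1 and from 2940 to 873 at FLAG without pulldown 1. At PML they fell from 6276 to 3049 without input 2, at SP100 from 6992 to 3310 without pulldown 1, and at NLS from 5792 to 2947 without pulldown 1. The percent of calls that were higher went from 29.8 to 46.7 at SMN2 with size factors, and from 56.9 to 24.9 at WRAP53 among genes with a mean of at least 5 CPM.

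The lamina protein LMNA (lamin A) and the reference GFP gave the lowest values of several members. At LMNA 1 of the 10 rose and 3 fell, where 58% of all genes were called (30.1% higher, 28% lower). SNHG16, host of the SNORD1 group, was at 278 and 271 CPM in the LMNA inputs and 154 and 114 CPM in the pulldowns, and fell by 1.04 on the log2 scale (-1.04 ± 0.14, adjusted p = 7.32e-08). SNHG29 was at 368 and 337 CPM in the inputs and 213 and 166 CPM in the pulldowns, the second of which was the lowest pulldown value of this gene. SNHG6 fell (-0.52 ± 0.19, lost without LMNA input 1 or pulldown 2, -0.46 and -0.38) and ZFAS1 rose (0.39 ± 0.16, lost without LMNA input 2 or pulldown 1, 0.26 each).

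At GFP 6 of the 10 members were called, all lower, where 53.9% of all genes were called (27.2% higher, 26.7% lower). SNHG16 fell by 0.95 (-0.95 ± 0.14), from 303 and 299 CPM to 122 and 191 CPM, SNHG8 by 0.81 (-0.81 ± 0.15), from 17.2 and 16.1 CPM to 8.98 and 10.2 CPM, and SNHG15 by 0.69 (-0.69 ± 0.12), from 41.8 and 38.0 CPM to 24.2 and 25.4 CPM. SNHG6 (-0.56 ± 0.20), SNHG29 (-0.48 ± 0.13) and SNHG5 (-0.40 ± 0.14) fell by less. The last 3 calls were lost without GFP pulldown 1, and that of SNHG6 also without GFP input 2 and that of SNHG5 without GFP input 1, with values of -0.52 to -0.39 for SNHG6, -0.36 for SNHG29 and -0.37 to -0.32 for SNHG5.

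Against NLS, 3 of the 10 members were called near LMNA, all lower, where 16.2% of all genes were called (7.46% higher, 8.73% lower). SNHG29 was lower by 0.87 on the log2 scale (-0.87 ± 0.19, adjusted p = 0.00162), SNHG16 by 0.57 (-0.57 ± 0.20, 0.0422) and SNHG5 by 0.56 (-0.56 ± 0.19, 0.0391). The SNHG29 call held without each single library. The SNHG16 call was lost without any LMNA or NLS library other than LMNA pulldown 1 (-0.59 to -0.39), and the SNHG5 call without LMNA input 1, LMNA pulldown 2 or any NLS library (-0.61 to -0.34). The LMNA pulldowns are of set III and those of NLS of set II, so construct and set cannot be told apart in this comparison. With GFP, whose pulldowns are also of set III, in place of NLS, which was added after the data had been seen, SNHG29 was at -0.41 (adjusted p = 0.345) and SNHG16 at -0.09 (adjusted p = 0.93), and SNHG5 was at 0.32 (adjusted p = 0.524). The single member called was SNHG8, higher by 0.81 (adjusted p = 0.0307), where 210 of the 23681 genes tested were called. The GFP inputs are of set I and the LMNA inputs of set II, so set differed in this comparison too.

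Over the 14 constructs, SNHG8 and SNHG16 were never called higher, with 7 and 6 falls, and SNHG1 and GAS5 were never called lower, with 7 and 5 rises. The shares of all genes called at each construct are those given above. Many of these calls were lost when 1 library was left out. They were the falls of SNHG8 at RNPS1, SMN2, WRAP53 and FLAG and of SNHG16 at SRSF7, RNPS1 and NLS. The rises lost were those of SNHG1 at SRSF7, PML, SP100, NPAT and FBL and of GAS5 at PML. SNHG15 and ZFAS1 were each called higher 6 times, and lower 1 time and 2 times. Lost in the same way were the rise of SNHG15 at NLS, the rises of ZFAS1 at LMNA and NLS, and both falls of ZFAS1. The values of SNHG8 ran from -0.81 at GFP to 0.19 at SRSF1, and those of GAS5 from -0.12 at FLAG to 0.89 at SRSF1. Pearson's r between the 14 values of each of the 45 pairs of members ran from -0.443 (SNHG16 and ZFAS1) to 0.936 (SNHG12 and ZFAS1), with a median of 0.379, and 18 pairs were above 0.5. SNHG1 and SNHG12 were at 0.898 and SNHG12 and SNHG15 at 0.894. The 14 values of a pair come from the same libraries, so these correlations are descriptions. Among 12221 other genes with a mean of at least 5 CPM, those whose 14 values were most like the mean of the members were MED31 (r = 0.944), ADPGK (0.928), GNL3 (0.927), UNC50 (0.925) and ZSCAN16 (0.924).

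The last comparison asked how RNA selection changed the members in SRSF7 pulldown RNA, using the 4 libraries of the second table. With poly(A) selection 8 of the 10 members were higher and 1 lower than with ribosome depletion, where 54.1% of all genes were called (27.5% higher, 26.7% lower). The median of the members was 0.57 and that of all genes 0.03. SNHG6 was at 48.8 and 75.6 CPM with poly(A) and 20.4 and 23.8 CPM with ribosome depletion, the largest difference of the 10 (1.49 ± 0.19, adjusted p = 6.34e-05). SNHG15 was at 91.8 and 119 CPM against 55.9 and 67.5 CPM (0.77 ± 0.11), SNHG1 at 170.2 and 235 CPM against 107 and 141 CPM (0.71 ± 0.17), and GAS5 at 283 and 357 CPM against 202 and 236 CPM (0.55 ± 0.10). The groups did not overlap in any of these genes, but the share of all genes that did so was not counted for these libraries. In the first table, 28% (SMN2) to 48.2% (SRSF1) of all genes had both pulldowns above both inputs.

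SNHG16 was lower with poly(A), at 78.1 and 75.7 CPM against 102 and 104 CPM (-0.42 ± 0.09, adjusted p = 0.000157). ZFAS1 was at 182 and 179 CPM against 189 and 208 CPM and did not pass (-0.14 ± 0.08, adjusted p = 0.178). SNHG5 (0.61 ± 0.10), SNHG12 (0.58 ± 0.14), SNHG8 (0.56 ± 0.18) and SNHG29 (0.32 ± 0.08) were higher. The calls of SNHG29 (0.26, adjusted p = 0.0585, without poly(A) library 2), SNHG12 (0.44, adjusted p = 0.0607, without ribosome-depleted library 1) and SNHG8 (0.22 to 0.35 without either of these libraries) rested on single libraries. Of 39 ribosomal protein mRNAs outside the host list 39 were higher with poly(A), and of 41 coding host genes 36 were.

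**Figure D5:**
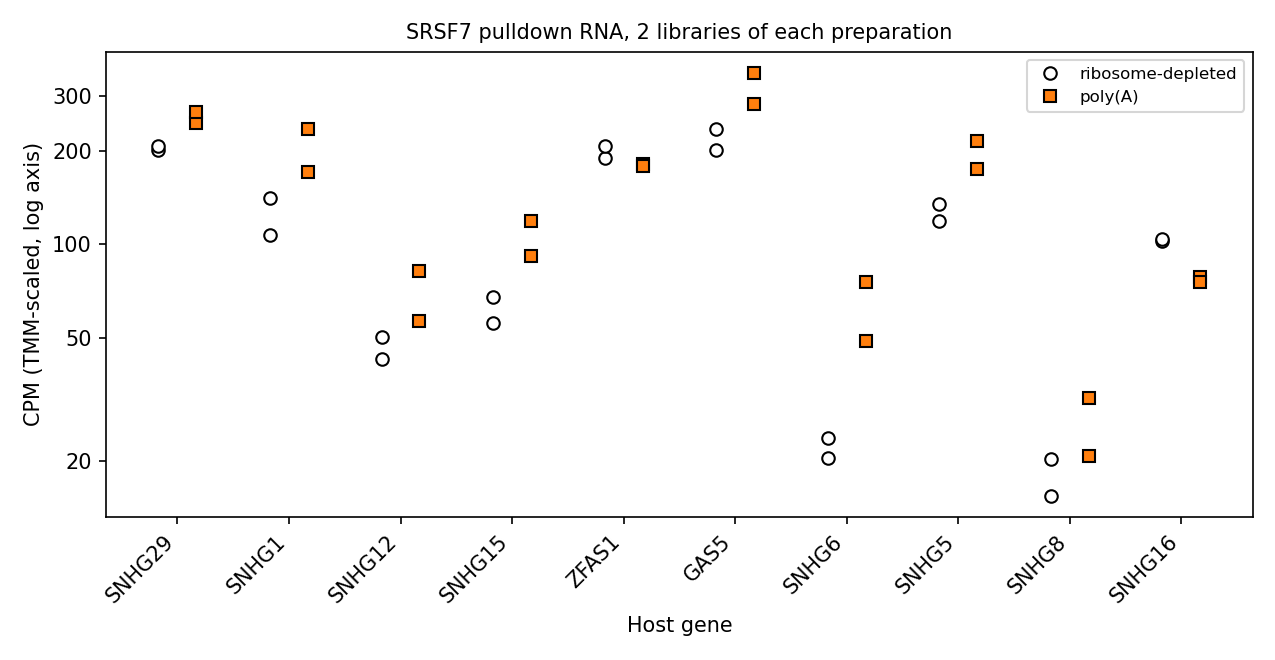
Levels (CPM with TMM scaling, log axis) of the 10 host genes in the 2 ribosome-depleted (open circles) and 2 poly(A) libraries (squares) of SRSF7 pulldown RNA. SNHG6 shows the widest gap, 20.4 and 23.8 against 48.8 and 75.6 CPM, and SNHG16 and ZFAS1 are the genes whose poly(A) values both lie below.

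The snoRNAs themselves could not be followed. Of 36 snoRNAs listed as hosted by the 10 genes, 23 had a row in the tables, and each of the 23 was at 0 counts in all 60 libraries. Of the 429 rows named SNORA or SNORD, 411 had no count in any library. The values above are therefore those of reads counted to the host gene rows. Whether reads in introns were counted is not given in the sources used here. Spliced host RNA, unspliced precursor and snoRNA-bearing introns thus cannot be told apart.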

How the data were processed

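RNA from APEX2 proximity labelling in HEK293 cells was sequenced as pulldown and input libraries. The authors deposited raw counts per gene in 2 tables, made with STAR 2.7.4a and featureCounts on hg38 per the submitters' processing notes; annotation and strand setting were not given in the sources used here. Of 60591 rows, 1 with a cell that is no number was left out. Counts were fitted with edgeR 4.0.16 in R 4.3.3 (TMM scaling, filterByExpr by group, glmQLFit with robust = TRUE, glmQLFTest, Benjamini-Hochberg over all genes tested, threshold 0.05), with all 56 libraries in 1 fit (28 residual degrees of freedom per gene) and the second table on its own (2 residual degrees of freedom). Standard errors are the log2 difference divided by the square root of F. The code was tested on simulated data.

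The members and gene lists were chosen with earlier results of these data known. Beyond the members, up to 4 genes per list with the smallest adjusted p in FBL over input were named. The 5 genes most correlated with the mean of the members were named too. LRRC75A (overlapping SNHG29) and the other genes that overlap members were named after their values were seen. So were RPS14P8 and RPS3AP21 (set), SNHG14, SNHG17 and SNHG31. Replicate libraries of a group all differed by more than counting noise (chi-square per degree of freedom of at least 1.31). Alternatives were size factors, total counts, other filters, DESeq2 1.42.0, a replicate block, pulldowns alone and leaving out each library; single speckle constructs, and FLAG or GFP as the reference, were added after the data had been seen.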

Additional observations from a re-analysis of the deposited data

Results flagged for a closer look

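Differences of pulldown over input between constructs passed the test for 11 pairs of member and comparison. SNHG29 was higher near FBL than near NLS by 2.19 on the log2 scale and than near the 10 other body baits by 2.30, and SNHG15 was lower near FBL than near the other baits (-0.64). Near the speckle constructs, against NLS, SNHG12 was higher by 1.16, SNHG1 by 0.96, SNHG15 by 0.93 and ZFAS1 by 0.85, and SNHG5 was lower (-0.50). Near LMNA, against NLS, SNHG29 (-0.87), SNHG16 (-0.57) and SNHG5 (-0.56) were lower. Of all genes, 0.688% were called for FBL against NLS and 4.62% against the other baits. The shares were 20.4% for the speckle constructs and 16.2% for LMNA. The calls of SNHG15 near FBL, SNHG1 and SNHG5 near the speckle constructs, and SNHG16 and SNHG5 near LMNA were lost when 1 library was left out. For LMNA, construct and set cannot be told apart.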

How the results depend on the processing

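The SNHG29 calls for FBL over input, against NLS and against the other baits held in all alternatives run, with values of 1.95 to 2.42, 1.98 to 2.65 and 1.96 to 2.55. Of 80 called member results 37 lost the call when 1 library was left out; a lone remaining library was assumed to vary like the other groups. Leaving out single libraries gave these ranges of members called: SRSF7 5 to 6, SRSF1 8 to 8, RNPS1 6 to 8, SAM68 0 to 1, PML 2 to 3, SP100 3 to 4, SMN2 0 to 1, WRAP53 0 to 1, NPAT 0 to 4, FBL 4 to 8, LMNA 3 to 4, NLS 1 to 3, GFP 3 to 7, FLAG 0 to 0, FBL against NLS 1 to 5, FBL against the other baits 1 to 7, speckle constructs against NLS 3 to 6, LMNA against NLS 1 to 5, and poly(A) 7 to 9.

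Other settings moved the members called as follows, and the cause was not tested. With size factors they were WRAP53 1, NPAT 2, FLAG 0 and LMNA against NLS 1, and with DESeq2 WRAP53 1, NPAT 2, FLAG 0, FBL against NLS 2 and LMNA against NLS 1. With total counts they were WRAP53 1, NPAT 3, FLAG 0, FBL against NLS 2 and LMNA against NLS 5. With no filter they were SP100 3, NPAT 0 and FLAG 0, and with a mean of at least 5 CPM WRAP53 1, NPAT 3, FLAG 0, FBL against NLS 2, FBL against the other baits 4 and LMNA against NLS 1. Without FBL and NPAT input 1 together, FBL over input had 4. As pulldowns alone, FBL against NLS had 4, FBL against the other baits 5 and LMNA against NLS 8. Of all 23681 genes tested, 2171, 3060 and 10628 were called in the same order. With FLAG as the reference FBL had 3, with GFP FBL had 6 and LMNA 1, and SRSF7 and RNPS1 alone against NLS had 3 each. Over all genes, 3425 were called for FBL and 210 for LMNA with GFP, and 1799 with RNPS1 alone.

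Among results called in the original or the alternative setting, the direction turned for SNHG5 (0.75) and SNHG15 (0.50) near FBL and SNHG5 (0.32) near LMNA with GFP as the reference, for SNHG16 near the speckle constructs with FLAG (-0.42), and for SNHG1 (-0.65) and SNHG6 (-0.45) near FBL against the other baits as pulldowns alone. Values that passed in neither setting also changed sign, among them SNHG1 (-0.53), ZFAS1 (-0.39) and SNHG12 (-0.26) for FBL against NLS as pulldowns alone and SNHG15 (0.64) for LMNA against GFP. Total counts moved the median of all genes by up to 0.301 (log2) and size factors by up to 0.105. Over all genes, the 163 calls of FBL against NLS became 2171 as pulldowns alone, 3425 with GFP, 272 with size factors, 46 unfiltered, 450 with at least 5 CPM, 784 with DESeq2 and 55 with the block, and 8 to 6246 without single libraries. The 1095 against the other baits became 3060 as pulldowns alone, 348 unfiltered, 2310 with at least 5 CPM, 2150 with DESeq2 and 151 without both odd inputs, the 4827 of the speckle constructs 1799 with RNPS1 alone and 8843 with FLAG, and the 3833 of LMNA against NLS 10628 as pulldowns alone and 210 with GFP. At least 5 CPM left 1899 of 5371 calls at WRAP53 and 8930 of 13742 at LMNA.

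The labels do not say whether a pulldown and an input of the same replicate number share an extract, and the data did not settle it: the correlation of their replicate differences ran from -0.218 to 0.465 (median 0.146), over 0.1 in 7 of 14 constructs. With the replicate block, SMN2 had 2 members called and NPAT 2, and 6 member results passed that had not, among them SNHG29 near the speckle constructs (-0.39, adjusted p = 0.0441).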
